A study of Mus musculus with 8 samples.

Results

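Small nucleolar RNAs (snoRNAs) are short nuclear RNAs that guide the chemical modification and cutting of ribosomal RNA. Box H/ACA snoRNAs direct the conversion of uridine to pseudouridine with the enzyme dyskerin, and box C/D snoRNAs direct ribose methylation with the enzyme fibrillarin. A few of them are instead needed to cut the rRNA precursor. Most mammalian snoRNAs lie in introns of other genes, called host genes, and are released when the intron is spliced out and debranched.

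The members were all genes on the array whose only annotated symbol starts with Snora (H/ACA) or Snord (C/D). There were 51 of them among 19938 genes tested, 20 H/ACA and 31 C/D, each read from 1 probe. No filter on low values was applied, so all 51 entered every comparison.

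RNA of mouse hearts was hybridised to Affymetrix Mouse Gene ST arrays, 2 per group. The groups were MAFbx knockout after myocardial infarction (KO MI), wild type after infarction (WT MI), MAFbx knockout after sham surgery (KO sham) and wild type after sham surgery (WT sham). MAFbx, also called atrogin-1, is a muscle ubiquitin ligase encoded by Fbxo32. Infarction was made by permanent ligation of the left coronary artery, and RNA was taken 1 day later. The labels do not state whether this day also holds for sham hearts, nor the strain, age and sex, the way the knockout was made, or whether replicate arrays hold RNA of different animals. The spread behind the p-values is that between the samples of a group, and may be technical.

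Fbxo32 had mean log2 levels of 5.30 ± 0.23 in KO MI and 8.28 ± 0.10 in WT MI hearts, and of 4.93 ± 0.35 in KO sham and 8.77 ± 0.03 in WT sham hearts (SD, n = 2 each). Along the second principal component of all genes, 1 array of KO sham (replicate 1, at -21.2 against 15.3 for replicate 2) and 1 of WT MI (replicate 2, at -20.2 against 0.6 for replicate 1) lay far from their partners, and results that rest on them are also given without them. The 10 cardiomyocyte markers averaged 13.06 to 13.32 on every array, which fits the heart label.

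All values are log2 expression values as deposited. "Rose" and "fell" are used of genes with an adjusted p under 0.05 in limma, a linear model with variances shared across genes, after Benjamini-Hochberg adjustment over all 19938 genes. A log2 fold change of 1 is a doubling. Column kits of the type used for these hearts keep short RNAs poorly, and a probe on a snoRNA can also bind the unspliced host transcript. The arrays do not tell these forms apart.

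The snoRNA probes covered nearly the whole range of the array. Averaged over the 8 arrays, 27 of the 51 lay below the median gene (5.80), 5 lay below the 10th percentile (3.05) and 6 lay above the 90th (8.98). The 5 dimmest were all C/D. The lowest means belonged to Snord58b (2.57), Snord38a (2.73) and Snord61 (2.76), and the highest to Snora52 (11.68), Snord57 (11.26) and Snord104 (10.87). Probes differ in brightness, so this order does not rank the amounts of RNA. The SD within a group had a median of 0.22 over the members, against 0.15 over all genes. The snoRNA values thus differed more between the arrays of a group than those of the typical gene.

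In MAFbx knockout hearts snoRNAs rose more often than they fell after infarction. Of the 51, 15 rose and 2 fell, where 10.5% of all genes rose and 10.3% fell. The median log2 fold change was 0.37 over the members and 0.01 over all genes. Among H/ACA members 6 of 20 rose (median 0.42), and among C/D members 9 of 31 (median 0.35). The KO MI and KO sham arrays did not overlap for 26 members that were higher and 5 that were lower after infarction, against 28.1% and 27.5% of all genes. Without KO MI replicate 2 there were 11 calls, of which 10 rose. In bulk tissue a change in the share of cells and a change in RNA per cell cannot be told apart.

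In wild-type hearts 27 of the 51 rose after infarction and 0 fell, where 12.3% of all genes rose and 15.8% fell. The median log2 fold change was 0.61 over the members and 0.04 over all genes. Of the H/ACA members 13 of 20 rose (median 0.90), and of the C/D members 14 of 31 (median 0.59). The WT MI arrays were both above both WT sham arrays for 39 members and both below for 3, against 35.0% and 31.6% of all genes.

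The shift was visible on each infarct array. Relative to the mean of the WT sham arrays, the median member lay 0.41 and 0.67 higher on the KO MI arrays, 0.59 and 0.67 higher on the WT MI arrays, and 0.19 and 0.12 higher on the KO sham arrays. The replicates of KO MI differed from each other, and only 10 of the 51 members read higher in replicate 1 than in replicate 2 (median difference -0.19, against -0.02 over all genes).

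**Figure D1:**
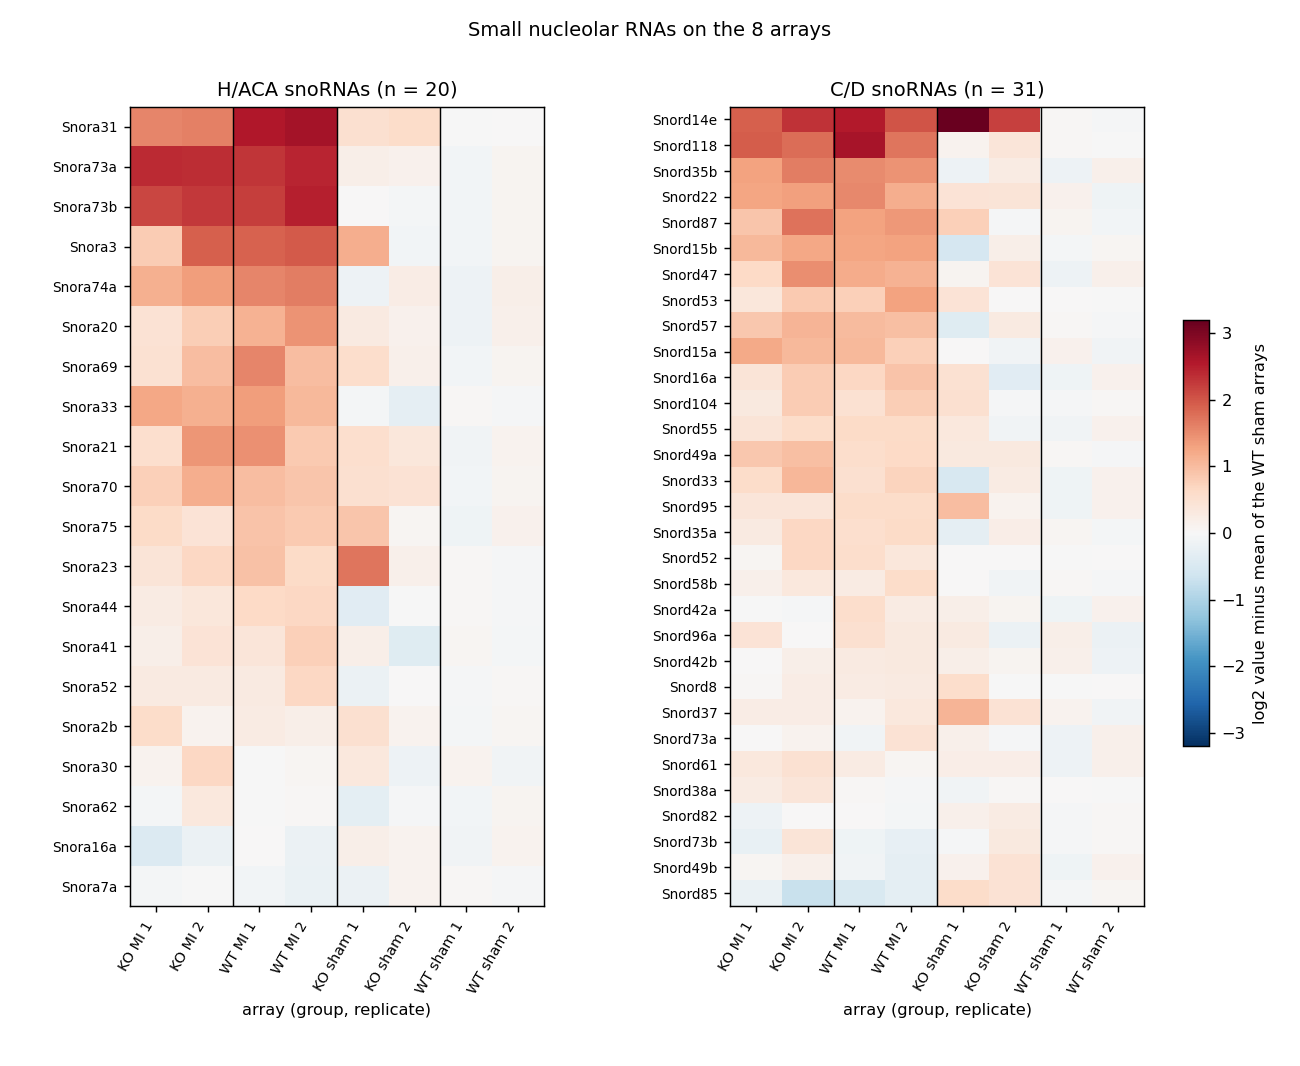
Each cell is the log2 value of 1 snoRNA on 1 array minus its mean over the WT sham arrays, for the 20 H/ACA members (left panel) and the 31 C/D members (right panel), ordered by the change in WT hearts. The infarct columns are mostly red, with member medians of 0.41 to 0.67, and the darkest sham cell is Snord14e on KO sham replicate 1.

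Leukocyte transcripts moved together with the snoRNAs. The mean of 10 neutrophil markers was 7.22 to 7.45 in KO MI hearts and 7.99 to 8.86 in WT MI hearts, against 3.85 to 4.07 in KO sham and 3.87 to 3.98 in WT sham hearts, and 8 of the 10 rose in KO MI and all 10 in WT MI. The mean of 9 monocyte and macrophage markers was 8.47 to 8.54 in KO MI, 8.39 to 8.91 in WT MI, 6.35 to 6.71 in KO sham and 6.46 to 6.51 in WT sham hearts, with 7 of 9 rising in each genotype. Among the cardiomyocyte markers 1 of 10 fell in KO MI and 4 of 10 in WT MI. The fibroblast markers fell for 1 of 8 in KO MI, where 1 rose, and for 4 of 8 in WT MI, the endothelial markers for 3 of 8 in KO MI and 2 of 8 in WT MI, and the smooth muscle markers for 3 of 7 in KO MI and 6 of 7 in WT MI. Of all genes 10.3% fell in KO and 15.8% in WT hearts. The 1 of 10 cardiomyocyte and 1 of 8 fibroblast markers that fell in KO MI were near that share. The part of these cell types in the snoRNA values was not tested.

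Most of the measured snoRNAs needed for cutting the rRNA precursor rose after infarction. Of the 10 listed, 5 had a probe of their own. In KO hearts 4 of these 5 rose (median log2 fold change 1.63) and in WT hearts all 5 (median 2.27). The exception was Snord14e.

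Snora73a and Snora73b are copies of U17, the H/ACA snoRNA required in frog oocytes for an early cut on the way to small-subunit rRNA. Snora73a read 10.86 and 10.85 in KO MI, 10.78 and 10.92 in WT MI, 8.67 and 8.62 in KO sham, and 8.38 and 8.58 in WT sham hearts. Every infarct array lay more than 2 log2 units above every sham array. Its log2 fold change was 2.21 in KO hearts (SE 0.13, limma adjusted p = 6.22e-06) and 2.37 in WT hearts (SE 0.13, adjusted p = 2.17e-06), a 4.63-fold rise in KO and a 5.17-fold rise in WT hearts. Snora73b read 11 and 11.13 in KO MI, 11.08 and 11.35 in WT MI, 8.86 and 8.80 in KO sham, and 8.78 and 8.94 in WT sham hearts. It followed Snora73a closely, with log2 fold changes of 2.24 in KO and 2.36 in WT hearts. The copies resemble each other and share a host, so the probes may bind both, and they are not separate evidence.

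Snord118, or U8, is a C/D snoRNA required in frog oocytes for making the large-subunit rRNAs, and it has a gene of its own. It read 5.16 and 5.01 in KO MI, 5.86 and 4.93 in WT MI, 3.32 and 3.59 in KO sham, and 3.24 and 3.19 in WT sham hearts. The sham values were near the 10th percentile of genes, so the folds are uncertain, but sham and infarct arrays did not overlap. The log2 fold change was 1.63 in KO (SE 0.25, limma adjusted p = 0.00163) and 2.18 in WT hearts (SE 0.25, adjusted p = 0.000201).

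Snord22, or U22, which frog oocytes need for small-subunit rRNA, read 5.27 and 5.32 in KO MI, 5.54 and 5.15 in WT MI, 4.44 and 4.42 in KO sham, and 4.14 and 3.86 in WT sham hearts. It rose by 0.87 in KO (adjusted p = 0.00397) and by 1.34 in WT hearts (adjusted p = 0.000223). U3, the most abundant of the processing C/D snoRNAs, is annotated on the array as Rnu3a and so is no member. Rnu3a read 5.90 and 6.33 in KO MI, 6.47 and 6.67 in WT MI, 3.50 and 3.88 in KO sham, and 3.64 and 4.11 in WT sham hearts, with log2 fold changes of 2.42 in KO (adjusted p = 6.62e-05) and 2.69 in WT (adjusted p = 2.1e-05).

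**Figure D2:**
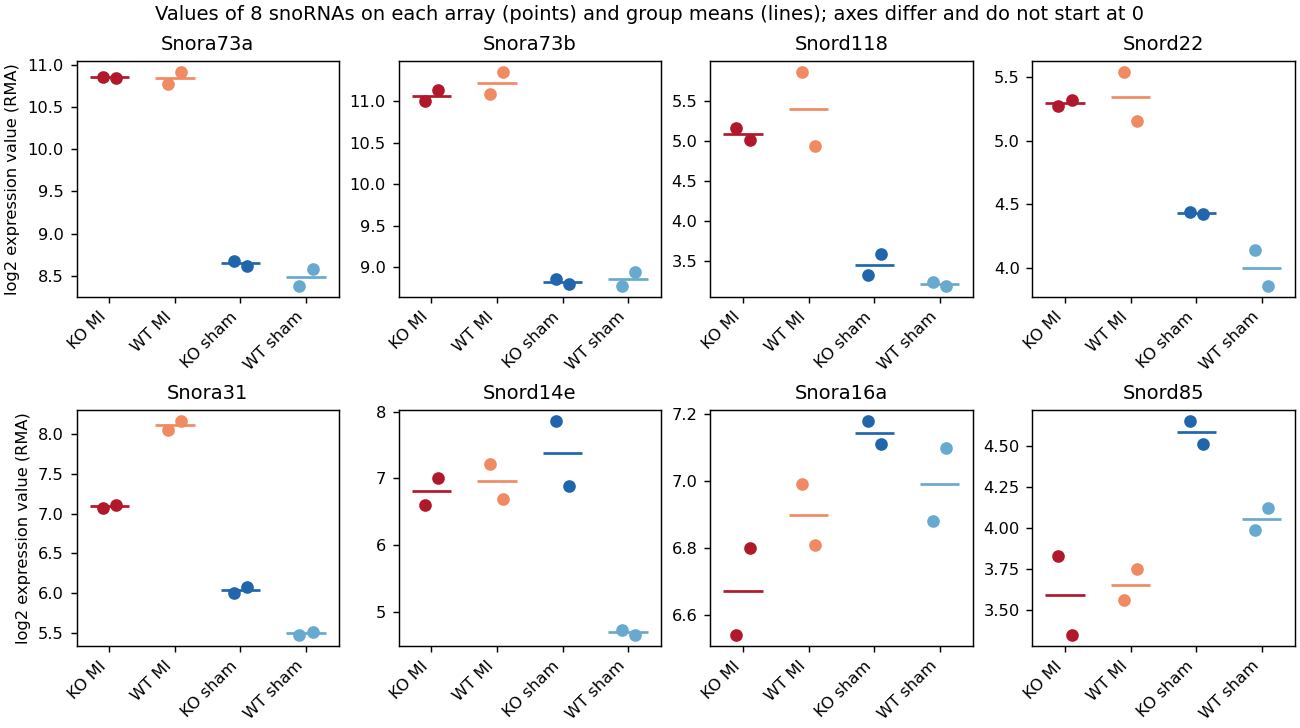
Points are the log2 values of 8 snoRNAs on each array and lines are group means, with an axis range of its own in each panel. Snora73a, Snora73b, Snord118 and Snord22 are high on all 4 infarct arrays, Snora31 is highest in WT MI, Snord14e is low in the WT sham arrays alone, and Snora16a and Snord85 are lower on the KO MI arrays than on the KO sham arrays.

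Of the 14 members that rose in both genotypes, 4 were described above, Snora31 is described below, and the other 9 are guides. Snora33, an H/ACA guide in the ribosomal protein gene Rps12, rose by 1.36 in KO and 1.19 in WT hearts, and read 7.37 and 7.28 in KO MI, 7.47 and 7.17 in WT MI, 6.08 and 5.84 in KO sham, and 6.18 and 6.09 in WT sham hearts. The C/D guide Snord35b rose by 1.41 in KO and 1.48 in WT hearts, and the pair Snord15a and Snord15b in Rps3 rose by 1.17 and 1.31 in KO and by 0.90 and 1.28 in WT hearts. Snora74a, in the non-coding gene Snhg4, rose by 1.20 in KO and 1.60 in WT hearts. Snord57, in the gene of the C/D core protein Nop56, rose by 1.02 in KO and 0.98 in WT hearts. The rise also passed in both genotypes for Snord87, Snora44 and Snord49a, with log2 fold changes of 0.49 to 0.94 in KO and 0.60 to 1.34 in WT hearts. Besides these 14, 1 (Snord33) rose past the threshold in KO hearts only, 13 in WT hearts only, and 23 rose in neither.

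The 13 that passed in WT hearts only include Snora3, in the ribosomal protein gene Rpl27a. It read 7.84 and 8.95 in KO MI, 8.93 and 8.99 in WT MI, 8.21 and 6.94 in KO sham, and 6.94 and 7.14 in WT sham hearts. Its KO arrays overlapped between infarct and sham only through KO sham replicate 1 (8.21), an array that lay far from its partner. Both KO MI arrays read above KO sham replicate 2 (6.94). The others were Snora20, Snora21, Snora52, Snora69, Snora70, Snora75, Snord14e, Snord16a, Snord35a, Snord47, Snord53 and Snord55, with log2 fold changes of 0.48 to 2.27 in WT hearts. In KO hearts 12 of these 13 were also above 0, so passing in WT hearts only does not show a different response.

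Snord33 and Snord35a lie in introns of Rpl13a, a locus whose snoRNAs are known from hamster cells as mediators of lipotoxic stress. Snord33 read 6.38 and 6.86 in KO MI, 6.29 and 6.49 in WT MI, 5.27 and 6.04 in KO sham, and 5.66 and 5.92 in WT sham hearts. It rose by 0.96 in KO hearts (SE 0.25, limma adjusted p = 0.021), and its change of 0.60 in WT hearts did not pass (adjusted p = 0.101). Without KO sham replicate 1 the KO change was 0.58 (adjusted p = 0.104), and without KO MI replicate 2 it was 0.73 (adjusted p = 0.165). Over all probes the adjusted p was 0.0701, and the KO call of Snord33 held under 15 of 19 alternatives. Snord35a showed 0.52 in KO hearts (adjusted p = 0.0778) and rose by 0.58 in WT hearts (adjusted p = 0.0419). The WT call held under 12 of 19 alternatives. Among those that lost it were fits without any 1 of the WT arrays (log2 fold change 0.52 to 0.64). It was also lost over all probes (adjusted p = 0.101) and after median centring (0.138).

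Of the 51 members, 2 fell in any comparison of infarct with sham hearts, both in KO hearts. Snord85, a C/D snoRNA, read 3.83 and 3.35 in KO MI, 3.56 and 3.75 in WT MI, 4.65 and 4.51 in KO sham, and 3.99 and 4.12 in WT sham hearts. It fell by 0.98 in KO hearts (SE 0.17, limma adjusted p = 0.00283), and its change of -0.40 in WT hearts did not pass (adjusted p = 0.107), though the WT arrays did not overlap. Snora16a read 6.54 and 6.80 in KO MI against 7.18 and 7.11 in KO sham hearts and fell by 0.48 (SE 0.14, adjusted p = 0.0427), with a change of -0.08 in WT hearts (adjusted p = 0.709). The Snora16a call is a marginal one, which held under 7 of 19 alternatives. It was lost without any 1 of the WT sham, KO sham or KO MI arrays (adjusted p 0.0602 to 0.261), without KO sham replicate 1 and WT MI replicate 2 together (0.104), with the replicate block (0.0609), with array weights (0.0883), over all probes (0.0848), in the KO arrays alone (0.0748) and after median centring (0.144). In WT hearts, where 0 members fell, the members below 0 with the smallest p were Snord85 and Snord49b (-0.20, adjusted p = 0.39).

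Several members had small fold changes in WT hearts. Snora7a, Snora62, Snord38a, Snord49b, Snord73a, Snord73b and Snord82 had log2 fold changes between -0.20 and 0.17 there. In KO hearts they ranged from -0.29 for Snord82 (adjusted p = 0.135) to 0.36 for Snord38a (adjusted p = 0.0613), and for both of these the KO MI and KO sham arrays did not overlap. Snord82 was as bright as many members that rose, with 9.27 and 9.44 in KO MI, 9.45 and 9.38 in WT MI, 9.59 and 9.70 in KO sham, and 9.41 and 9.46 in WT sham hearts. Of the 24 members brighter than the median gene 10 rose in KO and 16 in WT hearts, and of the 27 dimmer ones 5 rose in KO and 11 in WT hearts.

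**Figure D3:**
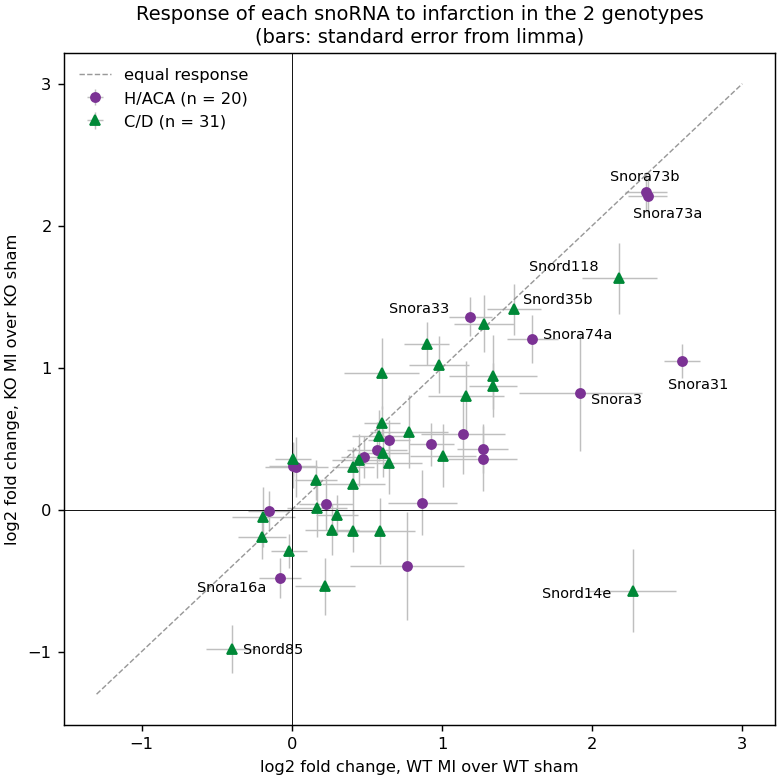
Each point is 1 snoRNA, with its log2 fold change in KO hearts on the vertical axis, that in WT hearts on the horizontal axis, and standard errors as bars. Of the 51 points 38 lie below the dashed line of equal change, with Snora31 and Snord14e farthest from it.

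The effect of MAFbx loss was examined in each condition. Among sham hearts 1 snoRNA rose in KO, Snord14e, and 0 fell. It was the only gene of 19938 that rose (0.00502% of genes, with 0.0251% falling). The member median was 0.16 (all genes -0.00), and 37 of 51 members were above 0. The microRNA genes leaned the same way, with 195 of 300 above 0 (median 0.06). The mean of 7 smooth muscle markers was 8.37 to 8.54 in KO sham against 8.98 to 9.52 in WT sham hearts, and 1 of the 7 was above 0 (median -1.02), though 0 passed. Its part in the snoRNA values was not tested. The KO sham and WT sham arrays did not overlap for 16 members that were higher in KO sham and 1 that was lower, against 16.6% and 16.1% of all genes. KO sham replicate 1 read high for several members, such as Snora23 (7.90, against 6.36 in replicate 2) and Snord95 (5.88 against 5.02), and low for others, such as Snord15b (6.76 against 7.46).

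Snord14e is a copy of U14, a C/D snoRNA that yeast needs for small-subunit rRNA, and lies in an intron of Hspa8, which encodes the constitutive heat shock protein Hsc70. It read 6.60 and 7.01 in KO MI, 7.22 and 6.69 in WT MI, 7.86 and 6.89 in KO sham, and 4.73 and 4.65 in WT sham hearts. The WT sham arrays were thus below all 6 others. Its log2 fold change was 2.69 for KO sham over WT sham (SE 0.29, limma adjusted p = 0.0154), 2.27 for WT MI over WT sham (adjusted p = 0.000374), -0.57 for KO MI over KO sham (adjusted p = 0.221) and -0.15 for KO MI over WT MI (adjusted p = 0.887). The comparisons share arrays, and the first and second both rest on the WT sham arrays. Without KO sham replicate 1 the change in sham hearts was 2.20 (adjusted p = 0.0332). The adjusted p was 0.0551 without WT sham replicate 1, 0.146 without WT sham replicate 2 and 0.0526 without either WT MI array, which ends the call, as it does in a fit of the sham arrays alone (0.156) and over all probes (0.323).

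The Hspa8 transcript did not follow. It read 13.15 and 13.25 in KO MI, 13.41 and 13.08 in WT MI, 12.63 and 12.94 in KO sham, and 12.94 and 12.84 in WT sham hearts, with a log2 fold change of -0.11 for KO sham over WT sham (adjusted p = 1). A pair of probes annotated jointly to Snord14c, Snord14d and Hspa8 had the pattern of Snord14e, with 6.73 and 7.17 in KO MI, 7.48 and 7.10 in WT MI, 8.72 and 7.97 in KO sham, and 5.74 and 5.78 in WT sham hearts on the first of them. The copies of U14 resemble each other, and their probes may bind more than 1 of them.

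After infarction 1 snoRNA fell in KO, Snora31, and 0 rose, where 0.0401% of all genes fell and 0.0301% rose. The member median was -0.11 (all genes 0.00), and 36 of 51 were below 0. In either direction 0.0702% of genes were called. The KO MI and WT MI arrays did not overlap for 7 members that were higher in KO MI and 12 that were lower, against 24.2% and 20.2% of all genes. Snora31, an H/ACA snoRNA in Tpt1, read 7.07 and 7.11 in KO MI, 8.05 and 8.16 in WT MI, 6.01 and 6.08 in KO sham, and 5.48 and 5.52 in WT sham hearts. No group overlapped another, and replicates lay within 0.11 of each other. The log2 fold change was -1.01 for KO MI over WT MI (SE 0.12, limma adjusted p = 0.0248), 1.05 for KO MI over KO sham (adjusted p = 0.000293), 2.60 for WT MI over WT sham (adjusted p = 9.4e-07) and 0.54 for KO sham over WT sham (adjusted p = 0.327). The KO MI call was lost without any 1 of the WT sham, WT MI or KO MI arrays (adjusted p 0.0594 to 0.339), without KO sham replicate 1 and WT MI replicate 2 together (0.11), with the replicate block (0.0627), after median centring (0.0511), in a fit of the infarct arrays alone (0.113) and over all probes (0.197), and held under 8 of 19 alternatives. Tpt1, which encodes the translationally controlled tumour protein, averaged 12.99 in KO MI and 12.95 in WT MI hearts and had a log2 fold change of 0.04 for KO MI over WT MI (adjusted p = 0.937).

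Among infarct hearts the members above 0 with the smallest p were Snord49a (0.32, adjusted p = 0.349) and Snord38a (0.32, adjusted p = 0.356), and neither passed. Among sham hearts those below 0 were Snora33 (-0.17, adjusted p = 1) and Snora44 (-0.19, adjusted p = 1).

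Whether the response to infarction differed with genotype was tested as the difference of the changes, KO minus WT. By limma 0 of 51 members passed, as did 0 of 19938 genes (0.0%). An unadjusted p under 0.05 was found for 9 of the 51 members and for 1637 of the 19938 genes. The difference was below 0 for 38 of the 51, with a median of -0.22 (all genes 0.01). The lean was not limited to snoRNAs. Of the 300 microRNA genes, also short RNAs, 79 were above 0 (median -0.15), and of the 10 neutrophil markers 0 were (median -1.04). Some other lists did not share the lean. Above 0 were 10 of 10 cardiomyocyte markers (median 0.14), 8 of 8 fibroblast markers (0.42) and 6 of 7 smooth muscle markers (0.80). Of 22 genes of rRNA synthesis and nucleolar proteins 11 were above 0 (median 0.00). After median centring of the arrays the member median was -0.06 and the all-gene median 0.17. Centring moves every gene by the same amount, so the distance of the members from all genes did not change. The smallest adjusted p belonged to Snora31 (-1.55, 95% interval -1.92 to -1.18, adjusted p = 0.0773), followed by Snord14e (-2.84, interval -3.76 to -1.91, adjusted p = 0.161). Snora31 passed with an intensity trend in the prior (adjusted p = 0.0379) and after cyclic loess (0.0418). For Snora73a, Snora73b, Snora33, Snord15b, Snord35b and Snord57 the differences were between -0.16 and 0.18. For the KO effect averaged over sham and infarct hearts 0 of 51 members passed, with 0.1% of all genes called. Here 8 of the 51 members and 1677 of the 19938 genes had an unadjusted p under 0.05. The smallest adjusted p among members was that of Snord14e (1.27, adjusted p = 0.098).

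Host genes were looked up by position. RefSeq places 50 of the 51 members inside another gene, Snord118 being the exception, and 47 inside exactly 1 gene. The table gives no strand, so a host is here the shortest gene that spans the snoRNA, on either strand. Of the members 21 lie in ribosomal protein genes, 13 in long non-coding RNA genes and 16 in other protein-coding genes. Those in long non-coding genes rose for 7 of 13 in KO hearts (median 0.61) and 8 of 13 in WT hearts (median 0.65). Those in ribosomal protein genes rose for 5 of 21 in KO (median 0.40) and 12 of 21 in WT hearts (median 0.60). Those in other coding genes rose for 2 of 16 in KO (median 0.11) and 6 of 16 in WT hearts (median 0.58). Of all genes 10.5% rose in KO and 12.3% in WT hearts, so the 2 of 16 in KO hearts were near that share.

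The host was itself measured for 27 members, from 23 hosts. In KO hearts 14 of the 23 hosts rose and 1 fell, and in WT hearts 15 rose and 0 fell. snoRNA and host changed in the same direction for 19 of 27 pairs in KO and 24 of 27 in WT hearts. Every measured host except Srcap was above 0 in both genotypes, as were most of these snoRNAs. The count therefore does not show that a snoRNA and its host move together. The sizes followed each other weakly in KO hearts and not in WT hearts. Across the 27 pairs Pearson's r was 0.34 and Spearman's rho 0.36 in KO hearts, and r was -0.05 and rho 0.02 in WT hearts. Pairs share arrays, and 4 hosts hold 2 of these members each, so these are descriptions. Over the 27 snoRNAs the median change was 0.37 in KO and 0.78 in WT hearts. Over the 23 distinct hosts it was 0.60 in KO and 0.60 in WT hearts. A host that holds 2 snoRNAs counts once there, so these medians cover unlike sets.

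The mismatch ran both ways. In WT hearts Snora31 rose by 2.60 while Tpt1 changed by 0.25 (adjusted p = 0.145), Snora20 rose by 1.27 while its host Tcp1, a chaperonin subunit, changed by 0.30 (adjusted p = 0.209), and Snora70 rose by 0.93 while Rpl10 changed by 0.19 (adjusted p = 0.366). In 5 WT pairs the snoRNA rose and the host did not pass. In the opposite direction Rpsa, a small-subunit ribosomal protein, rose by 1.20 in KO and 1.04 in WT hearts, while its Snora62 changed by 0.31 (adjusted p = 0.224) and 0.01 (adjusted p = 0.97). Rpl23a rose by 1.20 and 1.04, while Snord42a changed by -0.15 and 0.41 and Snord42b by -0.04 and 0.30, none of which passed. A few pairs changed alike, such as Snora33 with Rps12 (1.36 and 1.07 in KO, 1.19 and 1.11 in WT hearts) and Snord15b with Rps3 (1.31 and 1.25 in KO, 1.28 and 1.23 in WT hearts).

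Members from the same host could also part. Ncl, which encodes the nucleolar protein nucleolin, rose by 0.56 in KO and 0.90 in WT hearts. Its Snord82 changed by -0.29 and -0.02, and its Snora75 by 0.05 and 0.87, of which the last passed (adjusted p = 0.0201). The long non-coding gene Snhg12 holds Snora16a, at -0.48 and -0.08, and Snora44, which rose by 0.49 and 0.65. In 2410006H16Rik, Snord49a rose by 0.61 and 0.60 and Snord49b changed by -0.19 and -0.20. By contrast Snora73a and Snora73b in Snhg3, and Snord15a and Snord15b in Rps3, stayed within 0.38 of each other. Snhg3 was not among the genes tested.

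**Figure D4:**
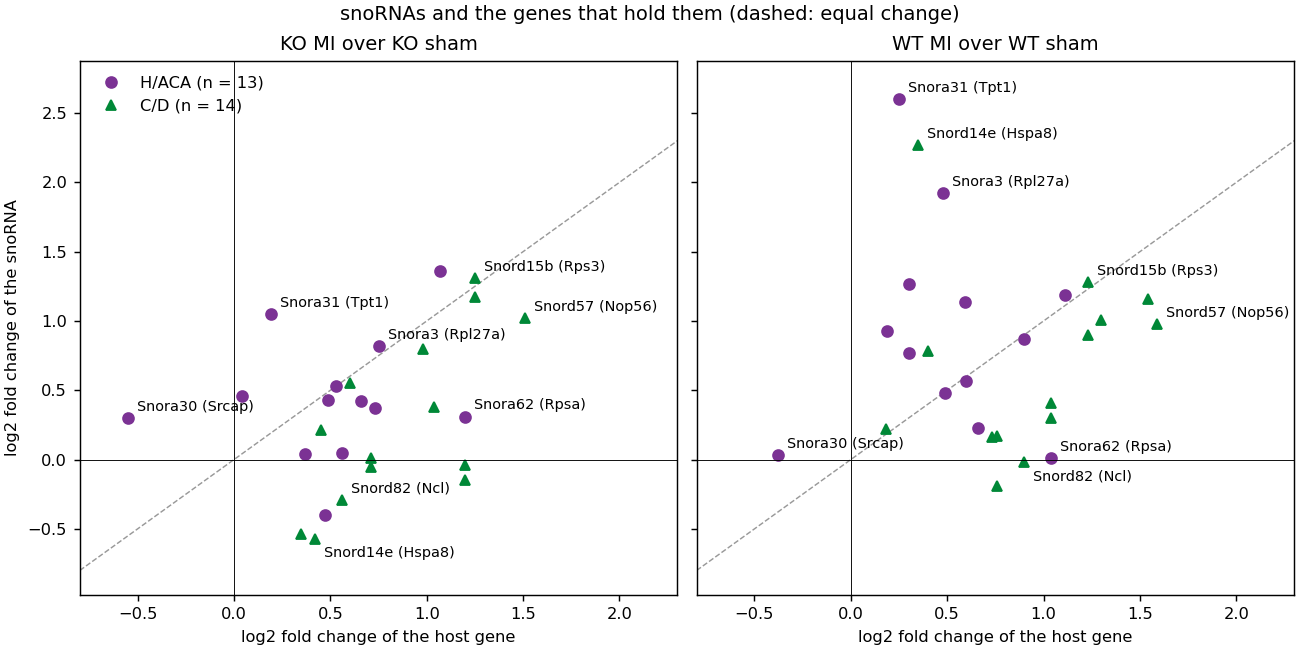
Each point is 1 of 27 pairs, with the log2 fold change of the host gene on the horizontal axis and that of the snoRNA on the vertical axis, for KO hearts (left) and WT hearts (right). Points scatter on both sides of the dashed line of equal change, with Snora31 far above it and Snora62 below it in both panels.

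Host genes of snoRNAs are known for promoters whose transcripts begin with a pyrimidine tract, a mark of genes of the translation machinery. RefSeq (GRCm38.p6) gave start regions for 30 of the 40 distinct hosts. A C at the annotated start followed by at least 4 bases that are each C or T, on the gene's strand, was present for 6 of these 30 hosts and for 3.01% of 27025 genes in the table. The sequence CACGTG, a palindrome and so the same on both strands, was found between 250 bases before and 50 bases after the start in 6 of 30 hosts and in 8.09% of all genes. These are matches of letters, and binding was not measured. The starts of 6 hosts of members described above are shown from 30 bases before the start to 20 bases from it, with the start base and any tract that runs from it in capitals. For a gene with several starts the one with a tract was taken.
Snhg3 (hosts Snora73a and Snora73b, chr4:132353667-132353716, minus strand): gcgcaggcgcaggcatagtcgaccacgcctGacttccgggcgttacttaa
Tpt1 (hosts Snora31, chr14:75845226-75845275, plus strand): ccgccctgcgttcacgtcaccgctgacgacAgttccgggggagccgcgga
Nop56 (hosts Snord57, chr2:130274382-130274431, plus strand): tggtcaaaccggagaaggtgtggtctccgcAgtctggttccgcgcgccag
Gas5 (hosts Snord47, chr1:161035136-161035185, plus strand): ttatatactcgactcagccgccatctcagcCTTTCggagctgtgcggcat
Rplp2 (hosts Snora52, chr7:141447621-141447670, plus strand): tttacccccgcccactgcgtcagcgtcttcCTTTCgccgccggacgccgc
Rack1 (hosts Snord95 and Snord96a, chr11:48800330-48800379, plus strand): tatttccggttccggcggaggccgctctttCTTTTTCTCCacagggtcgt
A tract was thus present at starts of hosts whose snoRNA rose (Gas5 with Snord47, which rose by 1.16 in WT hearts) and of hosts whose snoRNAs did not pass (Rack1 with Snord95 and Snord96a). It was not at the annotated start of Tpt1, Snhg3 or Nop56, whose snoRNAs rose in both genotypes. Ribosomal protein hosts such as Rps3, Rps12 and Rpsa had none there either. The match was sought only from the annotated start base, so a tract at a start some bases away would be missed. Absence here therefore does not show that a transcript lacks a tract.

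Transcripts of most measured core proteins of the snoRNA particles rose too, and protein was not measured. For the C/D particle, Nop58 rose by 1.70 in KO and 1.90 in WT hearts and Nop56 by 1.51 and 1.59. The methyltransferase fibrillarin (Fbl) rose by 1.45 and 1.36, and the U3-specific protein Rrp9 by 0.95 and 0.75. With Rrp9 included, 4 of the 5 listed C/D protein genes rose in each genotype. Snu13, which binds the C/D RNA fold, changed by 0.31 (adjusted p = 0.146) and 0.37 (adjusted p = 0.0686). For the H/ACA particle 3 of 4 genes rose in KO and 2 of 4 in WT hearts. Nhp2 rose by 1.17 and 1.42 and Gar1 by 0.75 and 0.91, while the pseudouridine synthase dyskerin (Dkc1) rose by 0.64 in KO hearts (adjusted p = 0.043) and changed by 0.55 in WT hearts (adjusted p = 0.062). Nop10 changed by 0.21 and 0.31 and passed in neither.

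**Figure D5:**
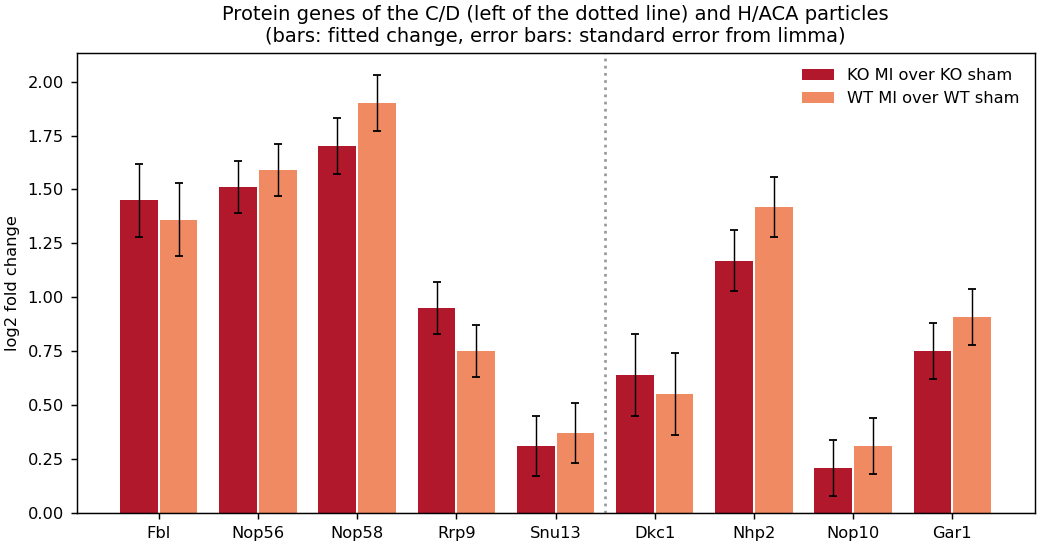
Bars are log2 fold changes of infarct over sham hearts for the protein genes of the C/D particle (left of the dotted line) and the H/ACA particle (right of it), in KO and WT hearts, with standard errors. Nop58 has the tallest bars, at 1.70 in KO and 1.90 in WT hearts, and Nop10 and Snu13 the shortest.

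Among 14 genes of snoRNA particle assembly and transport, 6 rose in KO (median 0.36) and 4 in WT hearts (median 0.22). Nolc1, a nucleolar chaperone of the particles, rose by 1 and 1.03 and the helicase Ruvbl1 by 0.72 and 0.77. Of 22 genes of rRNA synthesis and nucleolar proteins, 16 rose in KO (median 0.64) and 14 in WT hearts (median 0.73), among them Gnl3 by 1.54 and 1.73 and nucleophosmin (Npm1) by 1.41 and 1.45. Of 9 genes of intron debranching and RNA decay, 1 rose and 2 fell in each genotype. The share that rose (11.1%) was near that of all genes, 10.5% in KO and 12.3% in WT hearts. Of all genes 10.3% fell in KO and 15.8% in WT hearts. The debranching enzyme Dbr1, which opens the intron lariat that holds the snoRNA, rose by 0.46 in KO and 0.52 in WT hearts, while the exonuclease Xrn1 fell by 0.52 and 0.81 and the poly(A) polymerase Tent4b by 0.53 and 0.42. Among the genes of these lists 0 passed for KO against WT, in sham or in infarct hearts. Of all genes 0.0301% passed in sham and 0.0702% in infarct hearts, so lists of this size would mostly hold 0 calls.

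Among listed host genes 4 of 8 measured non-coding ones rose in each genotype. Gas5 had log2 fold changes of 0.98 in KO and 1.54 in WT hearts, and Snhg17 of 0.57 and 1.03. Of the 34 measured genes on the list of coding hosts, 20 rose in KO and 19 in WT hearts. That list also holds the non-coding Gas5, which is thus counted on both lists. Other small RNAs did not all move the same way. Of 300 microRNA genes 6 rose and 18 fell in KO hearts, and 19 rose and 8 fell in WT hearts (6.33% rising), with medians of -0.04 and 0.07. Of 9 other named small RNA genes 5 rose in each genotype, led by Rmrp, the RNA of a nucleolar ribonuclease, at 1.76 and 1.79, while Rn7sk changed by 0.00 and -0.06. Among 3 genes of Cajal body RNAs Scarna17 rose by 0.75 and 1.24. Of 4 long nuclear RNAs 0 rose and Tug1 fell by 0.73 and 0.59.

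The genes whose values over the 8 arrays followed Snora73a and Snora73b most closely by Pearson correlation were S100a11, Fstl3 and Lcn2 for Snora73a, and Efhd2, Adamts4 and Nop56 for Snora73b. The infarct and sham arrays form separate clusters, so no coefficient is given. The log2 fold changes of these 6 genes were 1.49 to 5.75 in KO and 1.59 to 6.11 in WT hearts, so genes whose changes differ in size share the pattern.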

How the data were processed

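Total RNA of mouse hearts was isolated with a silica column kit, labelled with biotin and hybridised to 8 Affymetrix Mouse Gene ST arrays, per the labels' protocols. The deposited log2 values were made by the authors with Affymetrix Expression Console and RMA, per the submitters' processing notes, for which the sources used here give no version and no further step. RMA as commonly run equalises the distributions of the arrays, which would reduce a shift shared by most genes.

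Of 35556 probes, 21789 had 1 gene symbol, 1621 several and 12146 none listed. The probe with the highest mean over the 8 arrays was used for each of 19938 genes, which mattered for 5 members. On 41 further snoRNA probes several symbols were listed, and these were kept out of the comparisons. Names were matched to RefSeq (GRCm38.p6) for 51 of 51 members. The array's build is not given in the sources used here, so RefSeq served for names and for which genes lie inside others.

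All 8 arrays entered 1 fit of 4 group means with limma 3.58.1 in R 4.3.3 (residual degrees of freedom 4, prior degrees of freedom 5.57), two-sided. With 2 arrays against 2, an exact permutation test cannot give a p under 0.333. Precision is limited by the number of arrays. The code was tested on simulated data. The members, lists and tests were chosen with earlier results of these data known. The text names, for each comparison, up to 5 rises and 5 falls with the largest change among members past the threshold with arrays that do not overlap, or the 2 with the smallest p where 0 passed, plus the 3 brightest and 3 dimmest members, the listed processing and Rpl13a snoRNAs, and up to 4 genes of each other list; further members were named after their values were seen. Replicate numbers were not taken to pair samples. Deviations from the group means correlated between -0.187 and 0.156, which with 2 arrays per group cannot exclude a weak pairing. The alternatives were cyclic loess, median centring, a fit of only the compared groups, array weights, a robust prior, a prior with an intensity trend, averaged or all probes, a filter that dropped the lowest 33.3% of genes, a 1.5-fold minimum, a replicate block, leaving out each array, and leaving out KO sham replicate 1 with WT MI replicate 2. A block with crossed KO numbers was chosen after seeing the data. Plots were made in Python 3.11.15 with matplotlib 3.10.9.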

Additional observations from a re-analysis of the deposited data

Results flagged for a closer look

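Probes annotated to several symbols lie outside the comparisons above, and several rose after infarction, by limma with adjustment over all probes. The 24 probes annotated to Snord116l1, Snord116l2 and Gm26504, from the imprinted cluster whose human counterpart is lost in Prader-Willi syndrome, rose for 2 of the 24 in KO hearts, with a median log2 fold change of 1.64 over these 2 and 1.54 over all 24, and for all 24 in WT hearts, with a median of 3.34. They are not independent, since 18 of them hold the same values and only 7 patterns occur. The shared pattern was 6.41 and 5.52 in KO MI, 7.29 and 7.71 in WT MI, 3.76 and 5.08 in KO sham, and 4.25 and 4.07 in WT sham hearts. None of the 24 probes passed for KO MI against WT MI or for the difference of the responses (median -1.80).

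The probes shared by Snord14c, Snord14d and Hspa8 fell in KO hearts (-1.39 and -1.40, adjusted p = 0.0219 and 0.0233) and rose in WT hearts (median 1.53), with a difference of the responses of -2.92 that did not pass (adjusted p = 0.569). The probe of Snora24 and Snhg8 rose by 1.11 in KO and 1.25 in WT hearts. That of Rpl12 and Snora65 rose by 0.87 in KO and 0.91 in WT hearts. The probe of Mir1291 and Snora34 rose by 0.92 in WT hearts, as did the pair of Snord1b and Snord1c by 0.65.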

How the results depend on the processing

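Groups of 2 arrays and dim probes limit what can be seen, and none of the 35 results on single snoRNAs changed direction. Of 651 values of these results under the alternatives, 599 kept their side of the threshold, 40 lost it and 12 gained it; Snora73a, Snora73b and Snord118 kept it in both genotypes under every alternative. Members called for KO MI against KO sham were 11 to 20 without 1 array (median 0.22 to 0.58), and the median was 0.49 without KO sham replicate 1 and WT MI replicate 2. For WT MI against WT sham they were 20 to 32 without 1 array (median 0.59 to 0.72). For KO sham against WT sham the 1 call became 0 over all probes and in the compared groups alone, and 0 to 2 without 1 array (median 0.09 to 0.23). For KO MI against WT MI it became 0 over all probes, in the compared groups alone, after median centring, with the replicate block and without those 2 arrays together, and 0 to 1 without 1 array (median -0.21 to -0.01). The difference of the responses gained 1 call with the intensity trend and after cyclic loess. Its member median was -0.39 to -0.11 without 1 array and -0.06 after median centring, which moved the all-gene median by the same amount. The averaged KO effect gained 1 call with the intensity trend and after median centring, and had 0 to 1 without 1 array. With the replicate block 16 members were called in KO and 27 in WT hearts, and with crossed KO numbers 15 in KO hearts. After median centring 62.3% of all called genes rose in KO hearts, against 50.7% as deposited, and 33.6% in WT hearts, against 43.8%, while 15 snoRNAs rose in KO and 25 in WT hearts. Among all genes calls for KO sham against WT sham numbered 1 to 34 and for KO MI against WT MI 0 to 63, against 6 and 14. The causes were not tested.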
